A study of Mus musculus with 4 samples.

Results

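Retinoic acid signalling was followed through 10 genes that make retinoic acid, break it down, bind it or handle its precursor retinol, out of the 52636 genes measured. They are the synthase genes Aldh1a1, Aldh1a2 and Aldh1a3, the breakdown genes Cyp26a1 and Cyp26b1, the receptor genes Rara, Rarb and Rarg, and the retinol handling genes Dhrs3 and Stra6. All 10 were found by matching the Ensembl identifiers of the deposited table to GENCODE M21 symbols. RNA had been sequenced from the whole lung of mouse embryos (strain C57BL/6) at embryonic day 14.5. The 2 control libraries (control 1 and 2) are labelled wild type. The 2 other libraries (Yap CKO 1 and 2) carry a conditional knockout of Yap, the transcriptional coactivator of the Hippo pathway, which the series title places in the epithelium. The labels name neither the Cre driver nor the deleted exons, and do not say whether a library holds 1 embryo or a pool. The p-values therefore measure only the spread between these libraries, which may be partly technical.

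Retinoic acid is made from vitamin A. Retinol circulates bound to a carrier, enters cells through receptors such as STRA6, and is oxidised first to retinaldehyde and then, by the retinaldehyde dehydrogenases of the ALDH1A family, to retinoic acid. DHRS3 reduces retinaldehyde back to retinol, and the CYP26 enzymes oxidise retinoic acid to inactive products. Retinoic acid receptors bind DNA together with retinoid X receptors and switch on target genes when the ligand is present. In the embryo retinoic acid is needed for the lung bud to form, and during later branching its signal declines in the distal lung.

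The libraries held 17756301 to 21333878 reads counted to genes. Yap1 itself stood at 5686 and 3467 normalized counts in the controls and at 3209 and 4483 in Yap CKO (log2 difference -0.23, limma adjusted p = 0.683), so in whole lung it does not check the labels. Control 1 stood apart in sex-linked genes, with Xist at 42.6 normalized counts against 42729 to 50045 in the other libraries. Control 2 stood apart in heart muscle, where 15 genes summed to 53401 normalized counts against 1990 to 12117 in the others. The 10 lung epithelial and 10 lung mesenchymal marker genes were all present in every library. The 11 liver genes summed to 29.1 and 87.7 normalized counts in controls and to 1657 and 904 in Yap CKO. Of these 11, 5 were higher in Yap CKO without overlap and 6 overlapped between the groups. Over all genes tested 25.2% were higher in this way. Of the 11, 4 averaged 10 normalized counts or more, as that test required. The 13 stomach and intestine genes, of which 6 held 0 reads in both controls, summed to 51.4 and 73.7 in controls and to 2560.3 and 1829 in Yap CKO.

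One of the 10 genes passed the test. Aldh1a1 fell by 58.0% in the libraries labelled Yap CKO, from 529 ± 13.2 to 222 ± 54.0 normalized counts (SD, n = 2 per group). The other 8 genes tested were also lower in mean, by amounts that did not pass. Cyp26a1 was the only gene with a higher mean in Yap CKO, at 26 reads in all, too few for the test. A normalized count is a gene's reads divided by the factor the authors used to scale its library, and only genes that averaged 10 or more across the 4 libraries were tested. The test was limma's on log2(normalized count + 1), with p-values adjusted over all 19472 genes that passed this filter and a threshold of 0.05. By it 1 of 9 tested members fell and 0 rose, where 1.15% of all genes tested fell and 1.19% rose (2.33% in all). With the recovered reads edgeR called 1 of the 9, where it called 2.07% of all genes, and DESeq2 called 2, where it called 5.54%. At an unadjusted p under 0.05 the number was 3 of 9, all lower, where 9.52% of all genes were lower at that level.

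In 7 of the 10 genes both Yap CKO libraries lay below both controls, in 1 they lay above and in 2 the groups overlapped. Over all genes tested the groups were apart in this way, with Yap CKO lower, for 25.6%. The median log2 difference of the 9 tested members was -0.38, beside -0.005 over all genes tested, of which 50.6% were lower in Yap CKO. The differences of these 9 genes ran from -1.27 to -0.07. In whole-organ RNA fewer cells of a type and less RNA per cell cannot be told apart, and this holds for every difference given here.

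**Figure D1:**
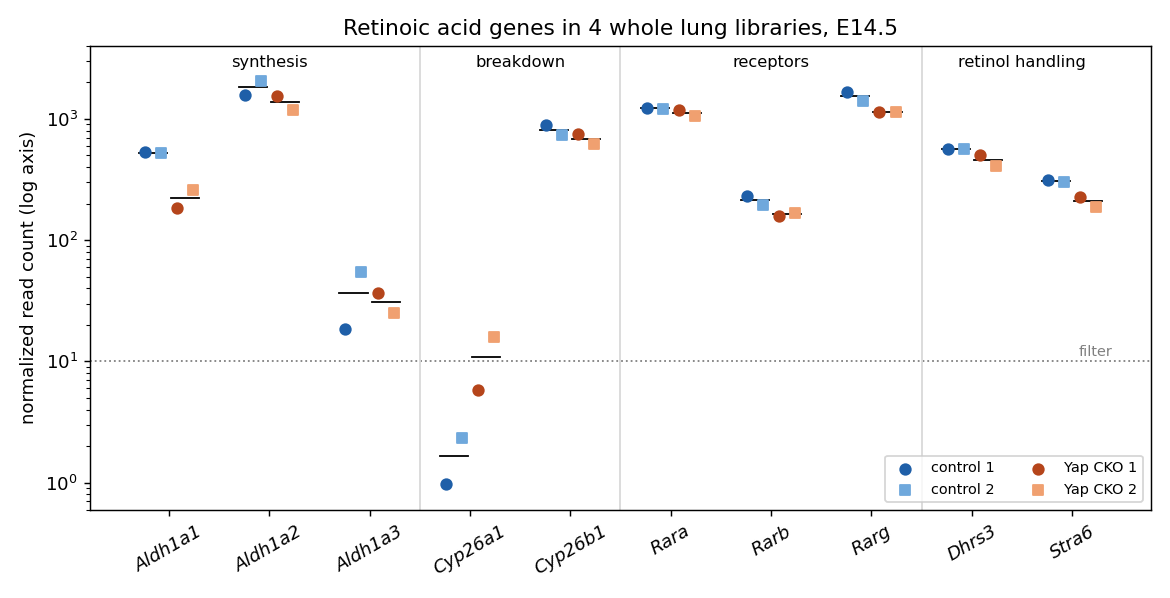
Normalized read counts (log axis) of the 10 genes, each library a point. Black lines mark group means (n = 2 each) and the dotted line marks the filter at 10. Aldh1a1 shows the widest gap among the tested genes, with controls at 538 and 519 and Yap CKO at 184 and 260, while Cyp26a1 lies between 0.969 and 15.8.

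Aldh1a1 encodes a retinaldehyde dehydrogenase that is widespread in adult epithelia (ENSMUSG00000053279, mm10 chromosome 19, 20492715 to 20643465, plus strand). The controls held 538 and 519 normalized counts and the Yap CKO libraries 184 and 260. The 2 controls lay close together and both Yap CKO libraries were far below them. The log2 change was -1.27 with a standard error of 0.19 (95% interval -1.71 to -0.83, limma adjusted p = 0.0274), lower in 2 of 2 libraries. The gene kept this direction in every setting tried. The call was lost without the filter on low values (limma adjusted p = 0.0911), where 56 of all 33288 genes were called. It was lost without the intensity trend in limma too (0.12), where 6 of 19472 genes were called. It was also lost when either Yap CKO library was left out, at log2 changes of -1.02 without the first and -1.52 without the second. By DESeq2 the adjusted p was 6.69e-06.

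Aldh1a1 has a close copy in the mouse, Aldh1a7, on the same chromosome (20692953 to 20727562, minus strand). The longest coding transcript of Aldh1a1 was 89.0% identical to that of Aldh1a7 over 2040 aligned positions, against 70.7% for Aldh1a2. Of all stretches of 50 bases in the Aldh1a1 transcript 6.54% occurred unchanged in Aldh1a7 and 0% in Aldh1a2 or Aldh1a3. Aldh1a7, examined after the values of Aldh1a1 were seen, stood at 3160 and 2814 normalized counts in controls and at 792 and 1250 in Yap CKO. It fell too (log2 change -1.58 ± 0.21 SE, limma adjusted p = 0.0212), and it lost its call under the same 4 settings, with adjusted p from 0.053 to 0.134. Aldh1a1 amounted to 17.0% and 18.5% of Aldh1a7 in controls and to 23.2% and 20.8% in Yap CKO. The sources used here do not say how the authors' alignment divided reads between the copies, so the level of Aldh1a1 is uncertain to that extent.

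Aldh1a2 encodes the main retinoic acid synthase of the embryo, known in the lung from the mesothelium and mesenchyme (chromosome 9, 71215789 to 71296243). It was the most abundant of the 10 genes per exon length. It held 1570 and 2072 normalized counts in controls and 1558 and 1180 in Yap CKO. Control 1 and Yap CKO 1 were nearly level, so the groups were apart by a narrow margin. The log2 difference was -0.41 (95% interval -0.84 to 0.02, limma adjusted p = 0.284). Without control 1, the library apart in sex-linked genes, it was -0.61. That fit rests on control 2 as the only control, the library apart in heart muscle and the highest in Aldh1a2. Without control 2 the difference was -0.21.

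Aldh1a3, the third synthase gene, which several embryonic epithelia express (chromosome 7, 66390890 to 66427517), was low. It stood at 18.4 and 55.0 normalized counts in controls and at 36.5 and 25.2 in Yap CKO, from 66 reads over the controls and 65 over Yap CKO. Both Yap CKO libraries lay between the 2 controls. The log2 difference of -0.07 had a 95% interval of -1.35 to 1.20 (limma adjusted p = 0.959), which takes in both a halving and a doubling. The sign turned without control 2 (0.69) and without Yap CKO 2 (0.19).

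Markers of other cells moved beside the synthase genes. The 9 smooth muscle markers summed to 21125 and 23594 normalized counts in controls and to 8262 and 11774 in Yap CKO. All 9 were lower without overlap, as were 25.6% of all genes tested. By the test 5 fell, as did 1.15% of all genes tested, and none of the 9 was at 0. The 7 mesothelial markers summed to 3945 and 5794 in controls and to 3882 and 3145 in Yap CKO. Muc16, a membrane mucin of the mesothelium, was the 1 of 7 that fell, and none of the 7 was at 0. The 10 lung epithelial markers summed to 20198 and 18589 in controls and to 15795 and 17037 in Yap CKO, and 0 of 10 passed.

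Each of the 10 genes was then set against the sums of 8 marker lists, a comparison made after the values were seen. Aldh1a2 kept the most even ratio to the mesothelial sum, at 39.8%, 35.8%, 40.1% and 37.5% of it in the controls and then the Yap CKO libraries, in order of their numbers. Aldh1a1 kept the most even ratio to the smooth muscle sum, at 2.55%, 2.20%, 2.22% and 2.21% in the same order. Relative to controls, the Yap CKO mean was 0.42 for Aldh1a1 and 0.45 for the smooth muscle sum. It was 0.75 for Aldh1a2 and 0.72 for the mesothelial sum. Each even ratio thus follows in part from mean falls of like size that were already given. Against the lung epithelial sum Aldh1a1 was at 2.66% and 2.79% in controls and at 1.16% and 1.53% in Yap CKO. Its ratios to the mesothelial, mesenchymal and endothelial sums were also lower in both Yap CKO libraries than in both controls. Cyp26b1, Rarb and Rarg were most even against the lung epithelial sum, and Rara, Dhrs3 and Stra6 against the mesenchymal sum. Most of the mesenchymal sum came from the collagen genes Col1a1 and Col3a1, with 40799 and 39875 of 103472 in control 1. Of its 10 genes 4 were lower in Yap CKO without overlap and 3 higher, where 25.6% and 25.2% of all genes tested were. Aldh1a3 was most even against the mesothelial sum, at 0.47%, 0.95%, 0.94% and 0.80% of it in the same order. Cyp26a1, on few reads, was most even against the liver sum, at 3.33%, 2.67%, 0.35% and 1.75% of it. These 4 points per gene are a description, and the part of these cells in the differences of Aldh1a1 and Aldh1a2 was not tested.

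**Figure D2:**
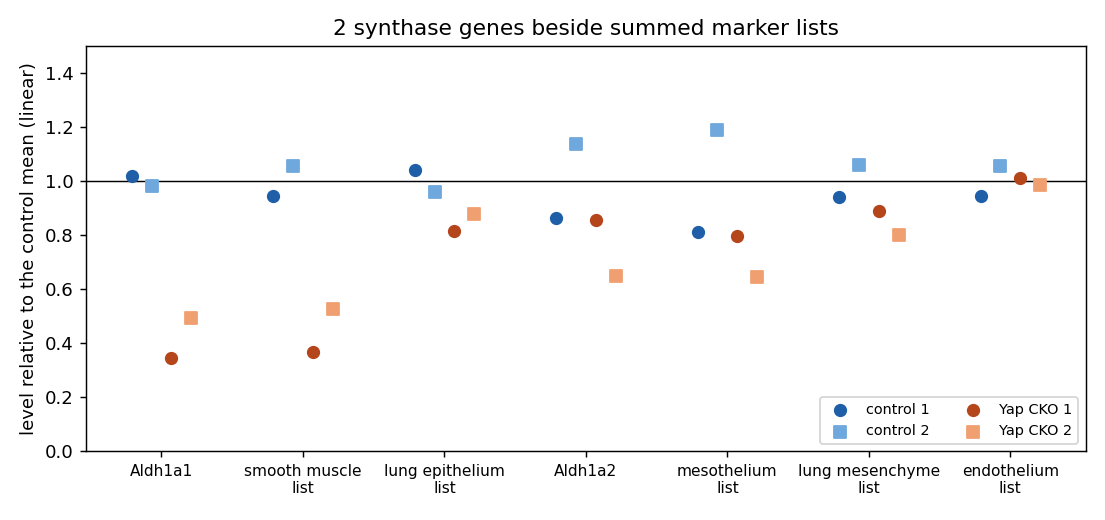
Levels of Aldh1a1, Aldh1a2 and 5 summed marker lists relative to the mean of the 2 controls (linear axis), 1 point per library. Aldh1a1 and the smooth muscle list lie together at 0.35 to 0.53 in Yap CKO, Aldh1a2 and the mesothelium list lie at 0.65 to 0.86, and the endothelium list stays at 0.99 and 1.01.

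Of the breakdown enzymes, only Cyp26b1 was well expressed. CYP26B1 clears retinoic acid in many embryonic tissues (chromosome 6, 84571414 to 84593908). It stood at 892 and 739 normalized counts in controls and at 757 and 622 in Yap CKO, with overlap between the groups. By limma the log2 difference was -0.24 (95% interval -0.59 to 0.11, limma adjusted p = 0.434).

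Cyp26a1 encodes the CYP26 enzyme best known for its strong induction by retinoic acid (chromosome 19, 37697798 to 37701536). It held 1 and 2 reads in controls and 6 and 17 in Yap CKO, or 0.969, 2.34, 5.77 and 15.8 normalized counts. Both Yap CKO libraries were above both controls, and Yap CKO 2 alone gave most of the reads. The ratio of reads, corrected for the scaling factors, was 6.85 with an exact 95% interval of 2.07 to 35.6, which covers counting error only. With a mean under 10 it was not tested. In the fit without the filter the log2 difference was 2.06 (limma adjusted p = 0.286).

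The promoters of Cyp26a1 and Rarb are shown here because both genes are standard readouts of retinoic acid in embryos. Sequences are from RefSeq on GRCm38.p6, the assembly also called mm10, which gave 19 windows for 9 of the 10 genes, each from 250 bases before a transcript start to 50 after it. They were searched on both strands for a pair of half-sites in 1 direction with 5 bases between them (a DR5 element), in which the half-site is AGGTCA. Allowed in its place were AGTTCA as one form, the sequence GGGTCA as another, and lastly GGTTCA. A DR5 match occurred in 2 of the 19 windows, those of Rarb and Cyp26a1, and in 32 of all 32851 promoter windows of that length (0.0974%). Because both genes are known readouts of retinoic acid, these 2 matches are no test of the members as a set. Each window is printed in the direction of its gene with the match in capitals, Rarb from chr14:16575427-16575726 on the minus strand and Cyp26a1 from chr19:37697558-37697857 on the plus strand.
Rarb promoter: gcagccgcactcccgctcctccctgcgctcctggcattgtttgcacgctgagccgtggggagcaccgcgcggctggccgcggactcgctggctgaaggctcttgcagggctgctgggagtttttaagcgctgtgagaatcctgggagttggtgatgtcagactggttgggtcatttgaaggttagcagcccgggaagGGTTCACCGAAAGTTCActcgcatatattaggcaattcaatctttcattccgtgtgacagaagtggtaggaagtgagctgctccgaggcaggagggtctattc
Cyp26a1 promoter: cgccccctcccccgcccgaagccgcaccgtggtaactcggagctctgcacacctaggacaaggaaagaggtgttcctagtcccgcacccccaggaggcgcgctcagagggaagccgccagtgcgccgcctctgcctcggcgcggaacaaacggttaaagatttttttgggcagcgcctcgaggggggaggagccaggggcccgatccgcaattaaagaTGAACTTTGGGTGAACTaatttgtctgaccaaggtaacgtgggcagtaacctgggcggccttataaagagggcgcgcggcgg

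The match lay at -53 to -37 from the Rarb transcript start of the printed window, on the strand of the gene. This start lies inside the annotated gene, which reaches further upstream. In Cyp26a1 it lay at -32 to -16 on the opposite strand. Read 5′ to 3′ along its own strand, with the half-sites in capitals and the spacer in lower case, each match is as follows.
Rarb element: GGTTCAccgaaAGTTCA
Cyp26a1 element: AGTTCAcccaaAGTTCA

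Of the 17 bases 15 were identical, and from Rarb to Cyp26a1 the differences were G1A and G9C, counted from 1 at the 5′ end of the element. The spacing of 2 bases (DR2) or 1 base (DR1) between the same half-sites occurred in 0 of the 19 windows, and in 0.268% and 0.222% of all windows. The letters CATTCC, the core bound by the TEAD partners of Yap, occurred in 2 of the 19 windows, 1 each of Aldh1a1 and Rarb, and in 14.7% of all windows. In Rarb they lay at -8 to -3 and did not overlap the DR5 match. These are matches of letters, with no binding measured.

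The 2 genes with a DR5 match did not share a direction. Rarb encodes retinoic acid receptor beta, whose promoter printed here responds to retinoic acid (chromosome 14, 16430839 to 16819156). It stood at 233 and 194 normalized counts in controls and at 159 and 168 in Yap CKO, lower in both Yap CKO libraries. Its log2 difference was -0.38 (95% interval -0.78 to 0.03, limma adjusted p = 0.293). The count is for the whole gene, so transcripts from the printed start were not measured apart from others. Of the 5265 exon bases of Rarb 1793 are shared with exons of Top2b on the opposite strand, which stood at 7689 and 7415 normalized counts in controls and at 5921 and 6838 in Yap CKO. The sources used here do not give the strand setting, so reads from these bases may not be told apart.

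Rarg, which encodes receptor gamma (chromosome 15, 102234938 to 102257517), was the most abundant of the 3 receptor genes in controls per exon length. It held 1653 and 1413 normalized counts in controls and 1138 in both Yap CKO libraries. Both Yap CKO libraries were below both controls, with most of the spread between the controls. On the log2 scale the difference was -0.42 (95% interval -0.69 to -0.16, limma adjusted p = 0.11), and its unadjusted p was 0.0068. Rarg passed by DESeq2 (adjusted p = 0.0382) but not by edgeR (adjusted p = 0.099). Over all settings the difference ran from -0.54, without control 2, to -0.31, without control 1.

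Rara, the broadly expressed receptor alpha gene (chromosome 11, 98927818 to 98974942), differed least of the genes whose groups were apart. It stood at 1235 and 1219 normalized counts in controls and at 1191 and 1063 in Yap CKO. The log2 difference was -0.12 (95% interval -0.37 to 0.12, limma adjusted p = 0.568). All 3 receptor genes were thus lower in mean and 0 of 3 passed.

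Stra6 encodes the cell surface receptor that takes up retinol from its carrier (chromosome 9, 58063788 to 58153996). It held 314 and 303 normalized counts in controls and 228 and 189 in Yap CKO. The groups were well apart, and the mean difference of -32.4% was the second widest of the tested members. By limma the log2 difference was -0.57 (95% interval -0.94 to -0.20, unadjusted p = 0.00904, limma adjusted p = 0.125). The difference was -0.59 without control 2 and -0.43 without Yap CKO 2.

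Dhrs3, the retinaldehyde reductase gene that retinoic acid itself induces (chromosome 4, 144892827 to 144928209), stood at 566 and 565 normalized counts in controls and at 508 and 411 in Yap CKO. The controls were level and both Yap CKO libraries were below them. Its log2 difference was -0.31 (95% interval -0.64 to 0.02, limma adjusted p = 0.295).

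Levels between genes were compared per kilobase of exon. In controls the order from high to low was Aldh1a2 (804 ± 157 normalized counts per kb), Rarg (360 ± 39.9), Rara (281 ± 2.60), Dhrs3 (193 ± 0.27), Cyp26b1 (152 ± 20.1), Aldh1a1 (107 ± 2.67), Stra6 (52.9 ± 1.35), Rarb (40.5 ± 5.16), Aldh1a3 (7.95 ± 5.60) and Cyp26a1 (0.834 ± 0.49). Neighbours in this order did not overlap between the 2 controls in any pair. In Yap CKO Rarg (267 ± 0.03) overlapped with Rara (258 ± 20.8), Dhrs3 with Cyp26b1, Aldh1a1 with Stra6 and Aldh1a3 with Cyp26a1. With the longest coding transcript as the length, Aldh1a1 moved above Cyp26b1 in controls, at 224 against 181 per kb.

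Aldh1a2 made up 86.0% and 88.7% of the summed synthase level per kb in controls and 93.9% and 90.0% in Yap CKO. Aldh1a1 made up 13.5% and 10.2% in controls and 5.07% and 9.09% in Yap CKO. By transcript length the share of Aldh1a1 was larger, at 24.6% and 19.1% in controls and 10.03% and 17.3% in Yap CKO. By either length the groups did not overlap, and with 2 libraries against 2 an exact permutation test cannot give a p below 0.333. Of the summed receptor level per kb Rara made up 39.6% and 43.1% in controls and 47.9% and 44.9% in Yap CKO, and Rarg 54.3% and 51.2% in controls and 46.9% and 49.2% in Yap CKO.

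**Figure D3:**
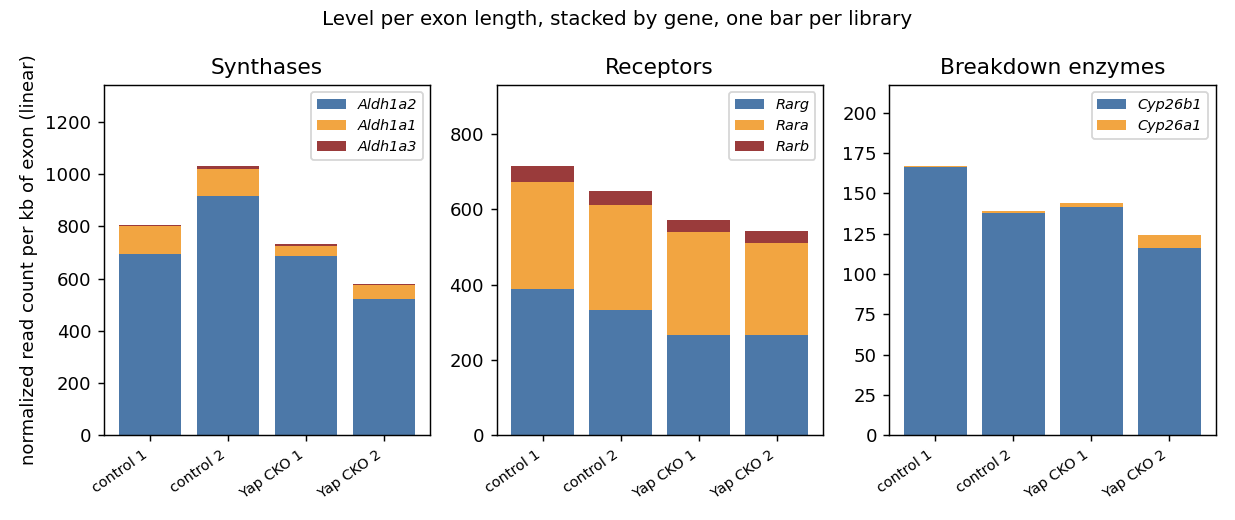
Normalized read counts per kb of exon (linear axis from 0), 1 bar per library, stacked by gene for the synthases, receptors and breakdown enzymes. Aldh1a2 fills 86.0% to 93.9% of each synthase bar, and the summed receptor level is 715 and 648 per kb in controls and 570 and 542 in Yap CKO.

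Beyond the 10 genes, 41 other genes of retinoid transport, oxidation, carriage and receptor action were listed. Of the 26 that passed the filter 1 rose, 0 fell and 25 did not pass, with a median log2 difference of -0.07. The rise was Ttr, which encodes transthyretin, the liver protein that carries the retinol-binding protein in blood. It stood at 0 and 4.68 normalized counts in controls and at 111 and 76.4 in Yap CKO (log2 change 5.29 ± 0.81 SE, limma adjusted p = 0.0316). Ttr passed the filter only through Yap CKO, so a gene like it had to differ. It lies in the liver list too, in which 5 of 11 genes, Ttr among them, were higher without overlap and 6 overlapped. Over all genes tested 25.2% were higher in this way. Afp, which gave most of that list's sum in Yap CKO, stood at 17.4 and 43.3 in controls and at 1157 and 639 in Yap CKO. Apoa2 of the same list stood at 2.91 and 5.85 in controls and at 4.81 and 4.66 in Yap CKO. The part of liver-type expression in Ttr was not tested. Its call was lost without the intensity trend (limma adjusted p = 0.126) and without the filter (0.105), settings that called 6 and 56 genes in all. It was lost too with either Yap CKO library left out, at log2 changes of 5.02 without the first and 5.55 without the second.

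The other listed retinol and retinaldehyde dehydrogenases gave no call. Of 17 such dehydrogenase genes 10 were tested and 0 passed, with 2 at an unadjusted p under 0.05, where 18.9% of all genes tested stood. Rdh10, the main embryonic retinol dehydrogenase, stood at 897 and 902 normalized counts in controls and at 1013 and 1036 in Yap CKO (log2 difference 0.19, limma adjusted p = 0.347). Rdh10 acts against Dhrs3, and its level per kb was 1.12 times that of Dhrs3 in both controls and 1.40 and 1.77 times in Yap CKO. Adh1, a cytosolic alcohol dehydrogenase that oxidises retinol, stood at 5890 and 4564 in controls and at 3307 and 4283 in Yap CKO (-0.46, adjusted p = 0.212). The log2 difference of Adh1 was -0.65 without control 2 and -0.28 without control 1. Rdh11, whose groups overlapped, differed by -0.20 with all libraries (limma adjusted p = 0.57) and by -0.41 without control 2. Rdh5 stood at 56.2 and 47.9 in controls and at 106 and 69.9 in Yap CKO (0.72, adjusted p = 0.24).

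Among carriers, receptor partners and cofactors 0 of 12 tested genes passed. The coactivator gene Ncoa2 differed by -0.21 on the log2 scale (limma adjusted p = 0.266) and the fatty acid binding protein gene Fabp5 by -0.38 (adjusted p = 0.266). All 3 retinoid X receptor genes were lower in mean, among them Rxra at 2987 and 3205 in controls and 2737 and 2630 in Yap CKO (-0.21, adjusted p = 0.288).

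Genes known to respond to retinoic acid gave no common direction. Of 23 listed genes 20 were tested by limma and 0 passed, with 5 at an unadjusted p under 0.05 against 18.9% of all genes tested. Among them edgeR called 0, where it called 2.07% of all genes, and DESeq2 called 1, where it called 5.54%. Of the 20, 13 were higher and 7 lower in Yap CKO, with a median log2 difference of 0.12. Meis1, a homeobox partner of HOX proteins, came nearest, with 3745 and 3343 normalized counts in controls and 5201 and 4943 in Yap CKO. Its log2 difference was 0.52 (limma adjusted p = 0.055), and it passed with values rescaled to equal totals (0.0429) and by DESeq2 (1.92e-04).

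The other responsive genes nearest to the threshold split in direction. The HOX genes Hoxa2 (log2 difference 0.47, limma adjusted p = 0.187) and Hoxa4 (0.28, adjusted p = 0.425) were higher, and Hoxb5 was lower (-0.18, adjusted p = 0.466). Ret, which encodes the receptor tyrosine kinase of enteric nerve precursors, stood at 260 and 294 normalized counts in controls and at 153 and 192 in Yap CKO (-0.69, adjusted p = 0.11). Tgm2, the transglutaminase gene, stood at 1889 and 2200 in controls and at 1639 and 1341 in Yap CKO (-0.46, adjusted p = 0.139). Zfp703, a zinc finger gene, differed by -0.41 (adjusted p = 0.219). Without control 1 the log2 differences were 0.60 for Meis1, -0.77 for Ret, -0.57 for Tgm2 and -0.55 for Zfp703. Without control 2 they were 0.44 for Meis1, -0.60 for Ret, -0.35 for Tgm2 and -0.28 for Zfp703. Hoxb4 was far from the threshold with all libraries (0.15, limma adjusted p = 0.714), and its groups overlapped. Without control 1 its log2 difference was 0.44.

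**Figure D4:**
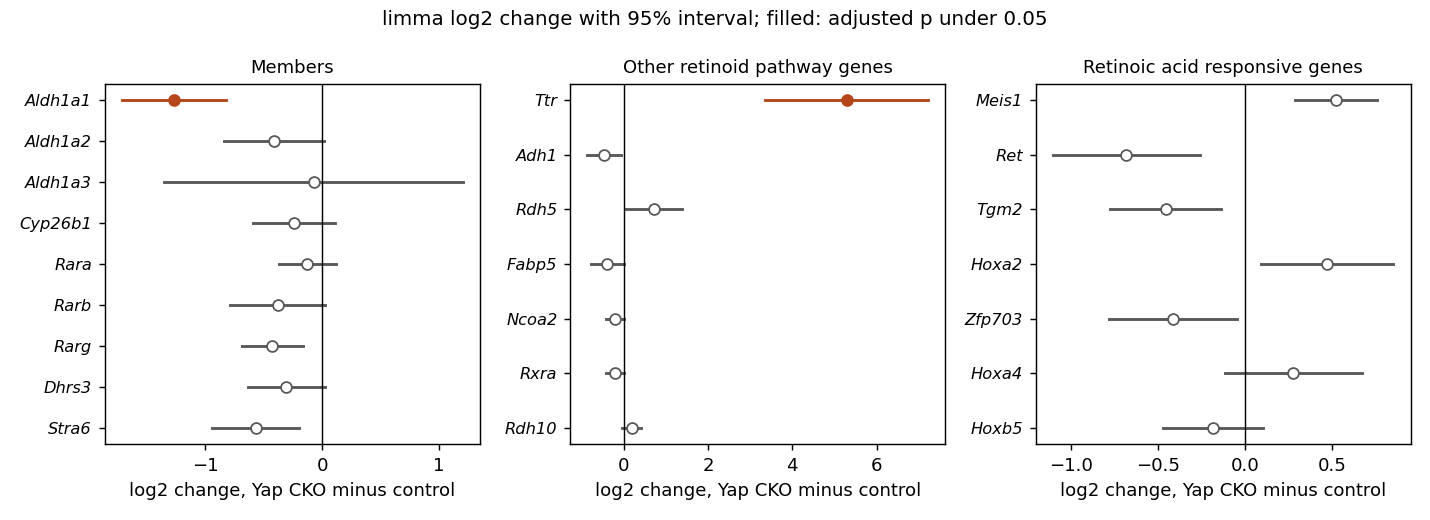
The horizontal axis is the log2 change of Yap CKO relative to control, drawn with its 95% interval from limma for the 9 tested members, and for 7 genes of each other list that were called or had the smallest p. Filled points passed at an adjusted p under 0.05, which are Aldh1a1 at -1.27 and Ttr at 5.29, and the scale differs between panels.

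Which further members passed depended on the libraries used. Without control 2 there were 3 calls among the 9 members, Aldh1a1, Rarg and Stra6, and without control 1 there were 2, Aldh1a1 and Aldh1a2. Without either Yap CKO library there were 0. Over all genes tested the number of calls was 454 with all libraries. Leaving out a control raised it (2459 without the first, 2458 without the second), and leaving out a knockout library lowered it (2 and 7).

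**Figure D5:**
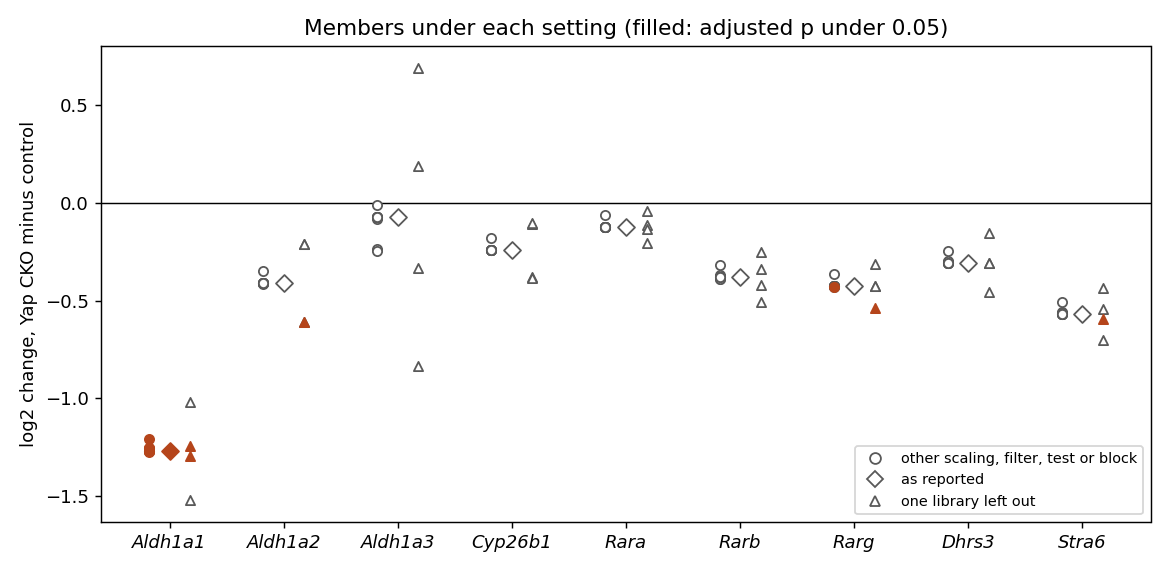
Log2 change of the 9 tested members (vertical axis) as reported (diamonds), with 1 library left out (triangles) and under the other scalings, filters, tests and blocks (circles), filled where the adjusted p was under 0.05. Aldh1a1 stays between -1.52 and -1.02, and Aldh1a3 crosses 0, from -0.84 to 0.69, and a filled point can hide an open one at the same value.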

How the data were processed

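Whole lung RNA of 4 samples was measured by RNA sequencing. The authors deposited 1 table of normalized read counts per Ensembl gene, a signal they had scaled between libraries. Per the submitters' processing notes the tools were Bowtie2 2.2.9, featureCounts 1.5.0-p1, DESeq 1.16.0 and edgeR 3.18.1 on mm10, with no role or order. The sources used here give neither the annotation nor the strand setting. In each library 100% of the values lay within 0.001 reads of a whole multiple of 1 number, so reads were recovered. A count of 0 allows up to 3 reads, 2.80 to 3.51 normalized counts. GENCODE M21 matched 52403 of 52636 identifiers and gave symbols, positions and exon lengths. The sample titles set the groups.

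Values were transformed to log2(normalized count + 1), genes with a mean of at least 10 were kept, and Yap CKO was compared with control by limma 3.58.1 in R 4.3.3 (variance trend, two-sided, Benjamini-Hochberg adjustment over all 19472 genes). Recovered reads were also tested with edgeR 4.0.16, which called 404 of 19472 genes, and DESeq2 1.42.0, which called 1037. The scripts were tested on simulated data. Libraries within a group differed beyond sampling noise (chi-square per degree of freedom 22.1 for controls, 6.64 for Yap CKO). The text names all 10 members, Yap1, and from each of the 2 other retinoid lists the called genes and those with the smallest p up to 8, of which 1 in each list is not reported here. The members and lists were chosen with earlier results of these data known. Of the marker lists, 0 of 8 endothelial and 0 of 15 heart muscle genes passed, and 0 of 10 lung mesenchymal genes.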

Additional observations from a re-analysis of the deposited data

How the results depend on the processing

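The members' count of 1 call was the same with pseudocounts of 0.5 and 5, a filter at a mean of 50, both other scalings, edgeR and the replicate block. It was 0 without the filter, where 56 of all 33288 genes were called, and 0 without the intensity trend, where 6 of 19472 were. By DESeq2 it was 2, where 5.54% of all genes were called. With 1 library left out it changed as given above. For the other pathway genes, 1 call became 0 without the filter, with the filter at 50 (which removes Ttr) or without the trend, 2 by DESeq2, and 0 to 4 with 1 library left out. For the responsive genes 0 became 1 of 20 under equal totals, where 469 of all 19472 genes were called, and 1 of 20 by DESeq2. It also changed when a control was left out, which raised the calls over all genes as well. Except where fewer genes or samples entered, the cause was not tested. Of the 9 members 8 kept their sign in every setting. Aldh1a3 turned to 0.69 without control 2 and to 0.19 without Yap CKO 2, and ran from -0.84 to 0.69 with 1 library left out. A lone library left in a group is assumed to vary like the others.

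The shared numbers 1 and 2 were not shown to pair the libraries, since deviations of same-numbered libraries had a correlation of -0.36 across genes. The replicate block left the counts at 1, 1 and 0. With crossed numbers, chosen after seeing the data, they were 1, 2 and 2.

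Equal totals moved the median of all genes to 0.057. Of the 10 genes, Cyp26a1 with 3 and 23 reads and Aldh1a3 with 66 and 65 rest on the fewest reads, and what part of their spread is counting error was not tested.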

Other observations

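Several listed genes stayed below the filter and belong to no test. They are named here after their values were seen. Dhrs9, a retinol dehydrogenase gene, stood at 4.85 and 7.02 normalized counts in controls and at 0 and 1.86 in Yap CKO. Bco2, a carotenoid cleavage enzyme gene, stood at 0 and 2.34 in controls and at 12.5 and 3.73 in Yap CKO. Its relative Bco1 stood at 11.6 and 9.36 in controls and at 6.73 and 12.1 in Yap CKO. Cyp26c1, the remaining CYP26 gene, had 0 reads in both controls and in Yap CKO 1, and 1 read in Yap CKO 2. Rdh7 had 0 reads in all 4 libraries, which allows up to 3 reads in each.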
